A study of Homo sapiens with 12 samples.

Results

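The genes described here are the AKT kinases and regulators of the mTOR pathway that the expression table lists by symbol: AKT1, AKT2, AKT1S1, CAB39, DEPDC5, DEPTOR, EIF4E, EIF4EBP1 and EIF4EBP2. All 9 named genes were found among the 4918 genes of the table, which runs in alphabetical order from A1BG to FAM46B, so pathway genes later in the alphabet, MTOR itself among them, were not analysed here. The samples were cultures of A375, an established human melanoma cell line, in 4 groups of 3: untreated control cells, cells given SB-3CT (an inhibitor of the gelatinases MMP2 and MMP9), cells given interferon gamma (IFN-γ), and cells given SB-3CT together with IFN-γ. Treatment lasted 24 h, the doses used for these samples were not given in the labels, and mRNA was sequenced. No label says that the 3 samples of a group were separate cultures, so the p-values measure the spread between these samples, which may be technical.

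AKT is a serine/threonine kinase that growth factor receptors activate through PI3K, and one of its outputs is the kinase complex mTORC1. mTORC1 joins this input to amino acid and energy signals and phosphorylates the EIF4E-binding proteins, which then release the cap-binding protein EIF4E so that translation can start. The PI3K and AKT route is often active in melanoma beside the MAPK route that mutant BRAF drives in A375 cells. The measurements here are mRNA levels, and they say nothing of the phosphorylation by which most of this pathway works.

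Values are given as FPKM, fragments scaled to transcript length and to the total of the sample, which can be compared between genes because they are per length. Changes are differences of log2(FPKM + 1), which understate the change of genes of low level, and a gene is called where its limma p, adjusted by Benjamini-Hochberg over all 4918 genes, is under 0.05. As a check of the IFN-γ labels, CXCL10, an IFN-γ-induced chemokine, was at 78.7 to 122 FPKM in the 6 IFN-γ samples and 0 to 0.05 in the other 6, and CD274, which encodes PD-L1, was at 13.5 to 23.9 FPKM against 0.428 to 0.808. Of 9 melanocyte and melanoma markers, ERBB3, CSPG4, AXL, BACE2, EDNRB and APOE lay between 3.95 and 60.3 FPKM, while DCT, CAPN3 and ABCB5 were at 0 to 0.384. The 11 markers of fibroblasts, lymphoid, myeloid and endothelial cells and keratinocytes that the table holds were all under 0.5 FPKM except DSC3, at 0.32 to 1.03. Depth in reads is unknown, and the depth of a sample relative to the control mean, read from the steps between low FPKM values, was 87.1% to 150.1%.

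Scale mattered for these genes. Among genes of at least 1 FPKM, the median change in SB-3CT + IFN-γ cells against IFN-γ cells was -0.20 as deposited and 0.02 after median-ratio scaling. Values after that scaling are given for the counts and for the genes that it moves most. Changes in the same comparison also followed transcript length, as set out further on, and a version with that trend removed was added after the data had been seen.

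SB-3CT given with IFN-γ, compared with IFN-γ alone, lowered the mRNA of CAB39 and EIF4EBP2 and raised that of EIF4EBP1. CAB39, a scaffold of the LKB1 kinase that activates AMPK, went from 11.2 ± 1.43 to 6.83 ± 0.371 FPKM (SD, n = 3), and EIF4EBP2, an EIF4E-binding protein, from 11.3 ± 0.822 to 7.73 ± 0.0883. EIF4EBP1, the other binding protein, went from 333 ± 23.7 to 413 ± 11.4 FPKM. Thus 1 of the 9 genes rose and 2 fell, against 6.41% of all genes called higher and 31.5% called lower. Of the 3177 genes with a mean of at least 1 FPKM, which all 9 reach, 348 were called higher and 1510 lower when fitted alone. The share lower among the 9 did not exceed the background at the deposited scale. After median-ratio scaling 2 of the 9 rose (EIF4EBP1 and AKT1) and 2 fell, with 811 of all genes called higher and 760 lower. With the length trend removed 1 rose (AKT1) and 1 fell (CAB39), with 464 and 428 of all genes, and EIF4EBP1 was not called. CAB39 alone of the 9 was also lower by more than 1.5-fold with an unadjusted limma p under 0.05, as were 6.51% of all genes. The 3 samples given both agents lay above all 3 IFN-γ samples for 1 of the 9 genes and below them for 3. Over all genes these shares were 9.35% and 39.6%. The median change of the 9 genes was -0.17 as deposited, beside -0.09 for all 4918 and -0.20 for those of at least 1 FPKM. After median-ratio scaling the median of the 9 was 0.05, so that its sign turned with the scale.

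SB-3CT alone, compared with control, raised AKT1 and EIF4EBP1 and lowered DEPTOR and EIF4E. These 2 genes called higher stood against 5.37% of all genes, and the 2 called lower against 6.87%. Of the 3177 genes of at least 1 FPKM, fitted alone, 366 were called higher and 535 lower. The SB-3CT samples lay above all control samples for 2 of the 9 genes and below them for 2, beside 14.2% and 19.7% of all genes. The median change of the 9 genes was -0.06, beside -0.01 over all genes and -0.03 over those of at least 1 FPKM. All 4 calls were close to the threshold or rested on which samples were used, as given gene by gene below.

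IFN-γ alone, compared with control, raised AKT1 and lowered DEPTOR and EIF4E. That is 1 gene higher, against 8.46% of all genes, and 2 lower, against 11.0%. The median change of the 9 genes was 0.06, beside -0.02 over all genes and -0.04 over those of at least 1 FPKM. The comparisons of SB-3CT and of IFN-γ with control use the same 3 control samples.

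The question whether SB-3CT changed a gene differently with and without IFN-γ was answered by the interaction term of a limma fit to all 12 samples. CAB39, EIF4EBP2 and AKT1 were called with a lower SB-3CT change in the presence of IFN-γ, 3 of 9 beside 17.6% of all genes. When the 3177 genes of at least 1 FPKM were fitted alone, 988 were called lower and 247 higher. None of the 9 was called with a higher one by limma as deposited, beside 4.74% of all genes, and 1 of them, EIF4E, had an unadjusted p under 0.05 in that direction. After median-ratio scaling CAB39 alone was called lower and EIF4E was called higher (0.41, limma adjusted p = 0.00565), with 384 of all genes higher and 257 lower.

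**Figure D1:**
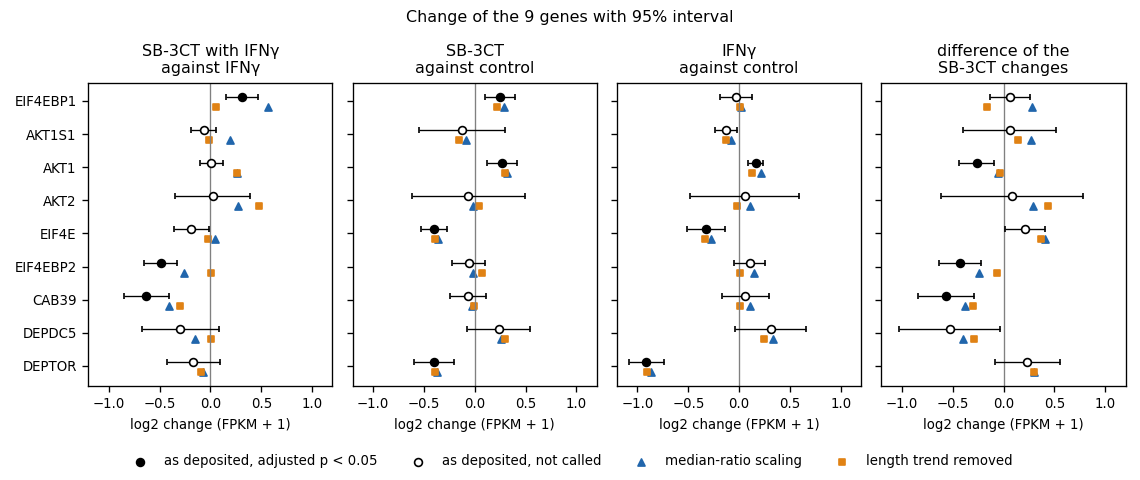
Log2 change in log2(FPKM + 1) of the 9 genes in each comparison, as deposited with its 95% interval as bars (filled points are called), and as triangles after median-ratio scaling and squares with the length trend removed. In SB-3CT + IFN-γ against IFN-γ, CAB39 and EIF4EBP2 lie below 0 as deposited (-0.63 and -0.49) and after median-ratio scaling. With the length trend removed CAB39 lies at -0.30 and EIF4EBP2 at 0.01. DEPTOR has the lowest value in IFN-γ against control (-0.91 as deposited).

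The 9 genes covered a wide range of levels. Their means over the 12 samples ran from 1.31 FPKM for DEPTOR and 1.40 for DEPDC5, through 9.69 for CAB39, 9.84 for EIF4EBP2, 12.7 for EIF4E, 36.3 for AKT2, 57.7 for AKT1 and 106 for AKT1S1, to 373 for EIF4EBP1. EIF4EBP1 was thus higher than 98.9% of all genes in the table, and DEPTOR higher than 38.1%. DEPTOR also varied most between samples, by 8.1-fold from the lowest to the highest, whereas AKT1 varied by 1.33-fold and EIF4EBP1 by 1.38-fold.

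**Figure D2:**
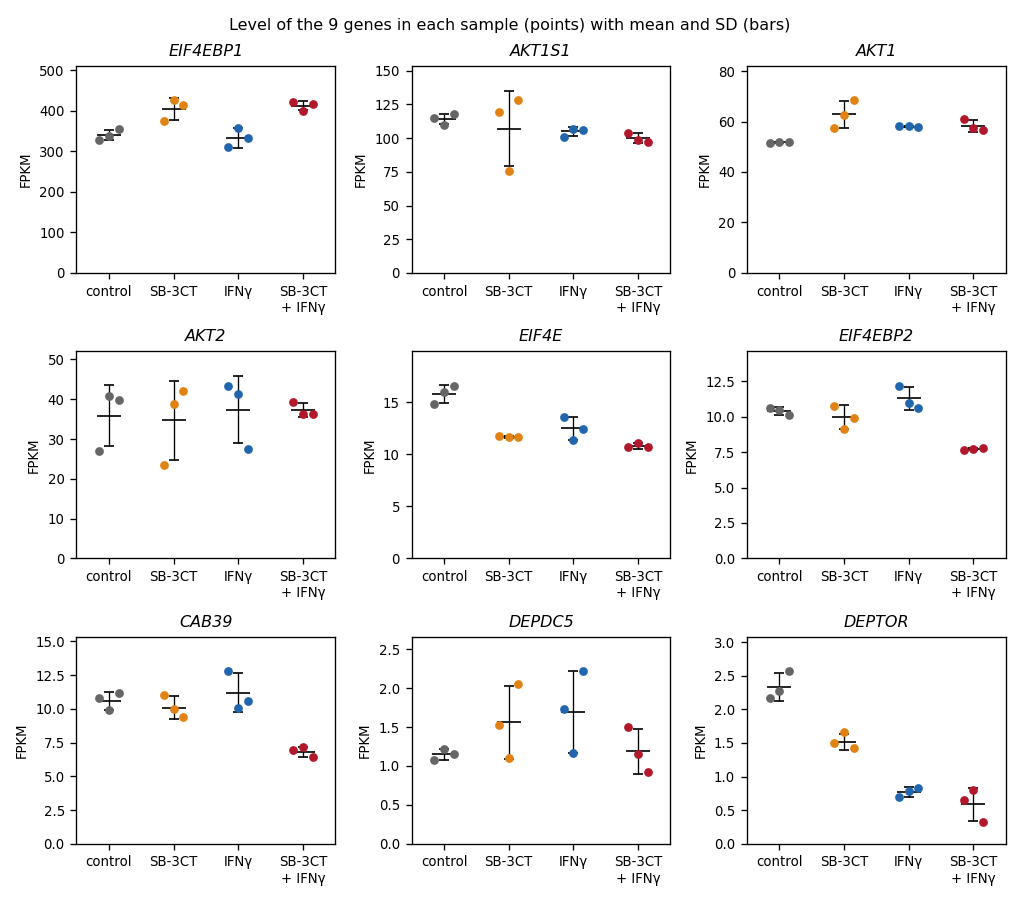
FPKM of each gene in each of the 12 samples, by group, with the group mean and SD (n = 3). The groups do not overlap for DEPTOR between control, SB-3CT and IFN-γ, and the SB-3CT + IFN-γ samples lie lowest for CAB39 and EIF4EBP2.

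AKT1 and AKT2 encode closely related kinases with the same domain plan, AKT1 being the broadly expressed form and AKT2 the form best known for insulin-stimulated glucose uptake. AKT1 lies on chromosome 14, at chr14:105235686-105262088 on the minus strand of hg19, with 15 exons in its canonical transcript of 2957 bases. Its level was 51.5, 52.0 and 51.7 FPKM in control, 57.5, 62.6 and 68.4 with SB-3CT, 58.1, 58.1 and 57.7 with IFN-γ, and 61.1, 57.4 and 56.5 with both. Control samples were the lowest and did not overlap any other group, while the 3 treated groups overlapped one another. AKT1 rose with SB-3CT by 0.27 ± 0.06 (SE, limma adjusted p = 0.0357). That call was lost when any 1 of 5 samples was left out (adjusted p from 0.0976 to 0.124) and kept without SB-3CT replicate 1 (0.0157), and the replicate number as a block gave 0.058. AKT1 also rose with IFN-γ, by 0.16 ± 0.03 (limma adjusted p = 0.0172), a call lost in a fit of all 4 groups (0.0561) and with the length trend removed (0.0752). The call was lost as well without control replicate 1 (0.0657), 2 (0.0592) or 3 (0.0658), or without IFN-γ replicate 3 (0.0666).

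With IFN-γ present, SB-3CT changed AKT1 by 0.01 as deposited (limma adjusted p = 0.922). After median-ratio scaling the change was 0.26 and was called (adjusted p = 0.0119), beside 0.31 without IFN-γ at the same scale. With the length trend removed it was 0.265 and was called as well (limma adjusted p = 0.015), beside 0.302 without IFN-γ. The difference of the SB-3CT changes was accordingly -0.26 ± 0.08 as deposited (limma adjusted p = 0.0347) and -0.05 after median-ratio scaling (0.792). The call was also lost under the replicate block (0.0525), with the length trend removed (0.889) and after quantile normalization (0.104), so a different answer of AKT1 with IFN-γ was seen at the deposited scale and not at the others. Leaving out 1 sample gave an adjusted p of 0.0574 to 0.0809 in 9 of 12 fits, and the call was kept without SB-3CT replicate 1 (0.0155), IFN-γ replicate 2 (0.0421) or SB-3CT + IFN-γ replicate 1 (0.031).

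AKT2 lies at chr19:40736224-40791443 on the minus strand of hg19, with 14 exons. It was at 27.0, 40.7 and 39.8 FPKM in control, 23.5, 38.7 and 42.1 with SB-3CT, 43.4, 41.2 and 27.6 with IFN-γ, and 39.4, 36.2 and 36.2 with both. In 3 groups 1 sample stood low, namely control replicate 1, SB-3CT replicate 1 and IFN-γ replicate 3, and all 4 groups overlapped. No comparison of AKT2 passed the test. Its change with SB-3CT in the presence of IFN-γ was 0.02 as deposited. The 95% interval was -0.35 to 0.39, so a change of either sign within it is compatible with these samples. The change was 0.27 after median-ratio scaling (limma adjusted p = 0.254) and 0.475 with the length trend removed (0.0922), neither of them called.

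AKT1S1 encodes PRAS40, an AKT substrate that holds mTORC1 back until AKT phosphorylates it. It lies at chr19:50372290-50381716 on the minus strand of hg19, with 5 exons, and overlaps TBC1D17 on the other strand, so that reads in the overlap cannot be assigned with certainty. Its level was 115, 110 and 118 FPKM in control, 119, 75.3 and 128 with SB-3CT, 101, 107 and 106 with IFN-γ, and 104, 98.3 and 97.1 with both. SB-3CT replicate 2 was the lowest of the 12 samples, and neighbouring groups overlapped. No comparison of AKT1S1 was called, the smallest adjusted p as deposited being 0.101 in limma, for IFN-γ against control (change -0.13).

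DEPTOR and DEPDC5 both restrain mTOR signalling, DEPTOR by binding mTOR within its complexes and DEPDC5 as a part of GATOR1, which turns mTORC1 off when amino acids are scarce. DEPTOR lies at chr8:120885957-121063157 on the plus strand of hg19, with 9 exons, and an antisense RNA, DEPTOR-AS1, overlaps it. It was at 2.17, 2.28 and 2.57 FPKM in control, 1.5, 1.66 and 1.42 with SB-3CT, 0.692, 0.790 and 0.831 with IFN-γ, and 0.648, 0.795 and 0.317 with both. Every control sample was above every SB-3CT sample, every SB-3CT sample was above every IFN-γ sample, and the 2 groups given IFN-γ overlapped.

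DEPTOR fell with IFN-γ by 0.91 ± 0.07 on the log2(FPKM + 1) scale (SE, limma adjusted p = 0.000521). This call held in every alternative, with an adjusted p of 0.00317 to 0.00501 when 1 sample was left out. With a pseudocount of 0.1 the change was -1.49, which shows how much the offset of 1 compresses a gene at this level. SB-3CT alone lowered DEPTOR by 0.40 ± 0.08 (adjusted p = 0.0279), from 2.34 ± 0.208 to 1.52 ± 0.121 FPKM (SD, n = 3). That call was lost after quantile normalization (0.0672), under the replicate block (0.0632) and without any 1 of 5 samples (0.0658 to 0.102), and it was kept without SB-3CT replicate 1 (0.0387). With IFN-γ present the SB-3CT change of DEPTOR was -0.17 (adjusted p = 0.282), -0.41 with a pseudocount of 0.1 and -0.04 without SB-3CT + IFN-γ replicate 3, and the difference of the SB-3CT changes, 0.23, did not pass either (0.272). Without SB-3CT + IFN-γ replicate 3, the sample at 0.317 FPKM, that difference was called (0.0475).

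DEPDC5 lies at chr22:32149853-32304019 on the plus strand of hg19, with 43 exons. It was at 1.08, 1.22 and 1.15 FPKM in control, 1.53, 1.10 and 2.05 with SB-3CT, 1.73, 1.17 and 2.22 with IFN-γ, and 1.5, 1.15 and 0.924 with both. The control samples lay close together and the treated samples were spread over all levels, so that all groups overlapped. No comparison of DEPDC5 was called. Leaving out IFN-γ replicate 2, the lowest of its group, gave a call for IFN-γ against control (limma adjusted p = 0.0293) and for the difference of the SB-3CT changes (0.0314).

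CAB39 encodes MO25, which binds LKB1 and STRAD and so feeds the energy-sensing arm that restrains mTORC1 through AMPK. It lies at chr2:231577557-231685790 on the plus strand of hg19, with 9 exons, and 1 pseudogene named for it is annotated elsewhere. Its level was 10.8, 9.89 and 11.2 FPKM in control, 11, 9.99 and 9.37 with SB-3CT, 12.8, 10.1 and 10.6 with IFN-γ, and 6.92, 7.15 and 6.42 with both. The 3 samples given both agents were below all the other 9, which overlapped. In the presence of IFN-γ, SB-3CT lowered CAB39 by 0.63 ± 0.10 (limma adjusted p = 0.00315). The change was smaller but still called after median-ratio scaling (-0.40, adjusted p = 0.00727), quantile normalization (-0.37, 0.0142) and removal of the length trend (-0.30, 0.0265), and leaving out 1 sample gave 0.00566 to 0.0241.

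Neither agent alone gave a call for CAB39, with changes of -0.07 for SB-3CT (limma adjusted p = 0.617) and 0.06 for IFN-γ (0.716). The difference of the SB-3CT changes was -0.56 ± 0.12 (limma adjusted p = 0.0107). It was -0.38 after median-ratio scaling (0.0235), was called after quantile normalization (0.0412), and was -0.30 and not called with the length trend removed (0.0638).

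EIF4E binds the cap of mRNAs and brings them to the ribosome, and it is the factor that the EIF4E-binding proteins hold. It lies at chr4:99800427-99850284 on the minus strand of hg19, with 7 exons, and 5 pseudogenes are named for it, so reads that the copies share are a source of uncertainty that was not tested. EIF4E was at 14.8, 16.0 and 16.6 FPKM in control, 11.8, 11.7 and 11.7 with SB-3CT, 13.6, 11.4 and 12.4 with IFN-γ, and 10.7, 11.1 and 10.7 with both. Control samples were above all others, the SB-3CT samples were nearly equal and above those given both agents, and the IFN-γ samples overlapped the SB-3CT samples.

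SB-3CT lowered EIF4E by 0.40 ± 0.05 (limma adjusted p = 0.00932), a call lost without control replicate 2 (0.0613), SB-3CT replicate 2 (0.0508) or SB-3CT replicate 3 (0.0583). IFN-γ lowered it by 0.32 ± 0.08 (adjusted p = 0.033). That call was lost under the replicate block (0.0787) and in 5 of the 6 fits without 1 sample (0.0597 to 0.115), the exception being IFN-γ replicate 1 (0.0247). In the presence of IFN-γ the SB-3CT change of EIF4E was -0.19 as deposited and was not called (0.0921), though it passed in the fit of all 4 groups (0.0352) and without IFN-γ replicate 2 (0.0265). After median-ratio scaling it was 0.05. The difference of the SB-3CT changes was 0.21 as deposited (limma adjusted p = 0.113) and was called after median-ratio scaling (0.41, 0.00565), quantile normalization (0.38, 0.00787) and removal of the length trend (0.37, 0.013).

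Since EIF4E fell with both agents, the 250 bases before its start were read from RefSeq on GRCh38.p14, at chr4:98929134-98929383 on the minus strand. They are printed 5′ to 3′, with capitals marking the letters CACGTG, the E-box that MYC and related factors can bind, and TTCNNNGAA, the GAS letters known from IFN-γ-activated genes.
EIF4E: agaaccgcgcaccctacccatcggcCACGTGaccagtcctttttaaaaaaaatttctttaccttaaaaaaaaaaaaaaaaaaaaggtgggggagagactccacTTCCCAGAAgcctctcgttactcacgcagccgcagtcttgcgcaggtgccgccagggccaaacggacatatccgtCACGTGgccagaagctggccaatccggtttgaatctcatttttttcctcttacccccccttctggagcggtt
The E-box letters start 225 and 72 bases before the start and the GAS letters 147 bases before it. On both strands, CACGTG was found in 6.34% and TTCNNNGAA in 6.57% of the 35116 windows of this length, the 2 motifs were found in no other of the 6 genes with a window (AKT1, AKT2, CAB39, DEPDC5, EIF4E and EIF4EBP2), and the ATF4 letters TGATGNAAT, in 0.888% of windows, were found in none. The GC box letters GGGCGG, in 42.6% of windows, were found for AKT1, AKT2, CAB39, DEPDC5 and EIF4EBP2. A match of letters is no evidence of binding.

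EIF4EBP1 and EIF4EBP2 encode small proteins that hold EIF4E when unphosphorylated. EIF4EBP1 lies at chr8:37888052-37917883 on the plus strand of hg19, with 3 exons in a canonical transcript of 827 bases, and 2 pseudogenes are named for it. Its level was 328, 339 and 354 FPKM in control, 374, 426 and 415 with SB-3CT, 310, 357 and 332 with IFN-γ, and 422, 400 and 418 with both. All 6 samples given SB-3CT were above all 6 without it. SB-3CT alone raised EIF4EBP1 by 0.25 ± 0.06 (limma adjusted p = 0.0441). That call was lost after median-ratio scaling (0.0604), quantile normalization (0.115), under the replicate block (0.0522) and without any 1 of 5 samples (0.105 to 0.152), and kept without SB-3CT replicate 1 (0.0188).

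With IFN-γ present, SB-3CT raised EIF4EBP1 by 0.31 ± 0.07 (limma adjusted p = 0.00995), and the call held in each fit without 1 sample (0.006 to 0.0487). The change was 0.57 after median-ratio scaling (adjusted p = 0.00631), but 0.07 and not called after quantile normalization (0.334), and 0.06 and not called with the length trend removed (0.378). IFN-γ alone changed it by -0.03 (limma adjusted p = 0.774).

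EIF4EBP2 lies at chr10:72163901-72188374 on the plus strand of hg19, with 3 exons in a canonical transcript of 7491 bases, and 3 pseudogenes are named for it. Its level was 10.6, 10.5 and 10.1 FPKM in control, 10.8, 9.16 and 9.92 with SB-3CT, 12.2, 11 and 10.6 with IFN-γ, and 7.63, 7.76 and 7.80 with both. As for CAB39, the 3 samples given both agents were below all the other 9. In 39.6% of all genes these samples lay below the 3 IFN-γ samples. SB-3CT lowered EIF4EBP2 in the presence of IFN-γ by 0.49 ± 0.07 (limma adjusted p = 0.00277), and by 0.26 after median-ratio scaling (0.0126). With the length trend removed the change was 0.01 and not called (0.964). SB-3CT alone gave -0.06 (0.632) and IFN-γ alone 0.10 (0.319). The difference of the SB-3CT changes was -0.43 ± 0.09 (limma adjusted p = 0.0104), and it was not called after median-ratio scaling (-0.24, 0.0541), quantile normalization (-0.21, 0.0928) or removal of the length trend (-0.06, 0.655).

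Transcript length moved with the changes in SB-3CT + IFN-γ against IFN-γ. Among genes of at least 1 FPKM, the median change was 0.27 for 222 genes with canonical transcripts under 1000 bases, 0.01 for 649 genes of 1000 to 2000 bases and -0.21 for 1166 genes of 2000 to 4000 bases. It was -0.37 for 871 genes of 4000 to 8000 bases and -0.47 for 241 genes above that. EIF4EBP1, at 827 bases, and EIF4EBP2, at 7491, stand near the ends of this range. CAB39, at 3829 bases, lies close to the upper bound of its class. It fell further than the median of that class and of the next, and its change was -0.30 with the length trend removed. The part of length in the changes of single genes was otherwise not tested.

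**Figure D3:**
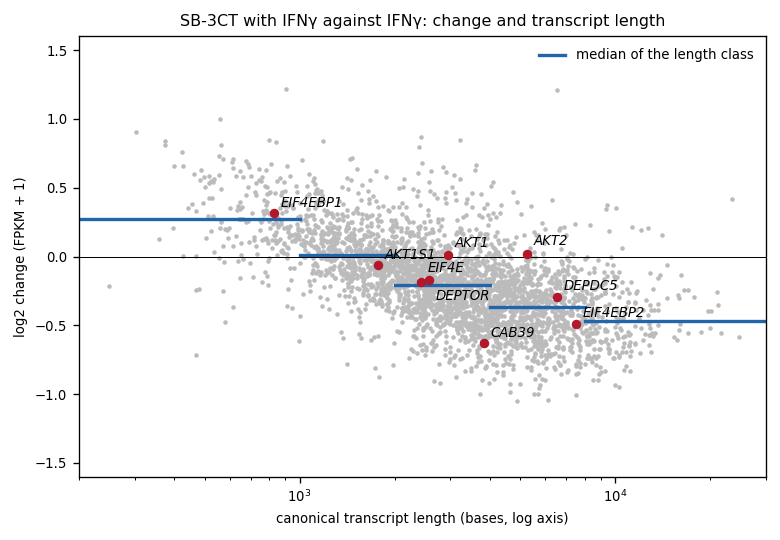
Log2 change in SB-3CT + IFN-γ against IFN-γ plotted against canonical transcript length in bases (log axis), for genes of at least 1 FPKM, with the median of each length class and the 9 genes marked. The class medians go from 0.27 for the shortest transcripts to -0.47 for the longest. CAB39, at -0.63, lies below its class median of -0.21 and, near the bound, below the next class median of -0.37.

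Ratios between genes of 1 sample do not depend on the scaling of that sample. The ratio of EIF4EBP1 to EIF4E, binding protein to cap-binding protein, was 22.1, 21.2 and 21.3 in control, 31.6, 36.6 and 35.3 with SB-3CT, 22.7, 31.5 and 26.8 with IFN-γ, and 39.6, 36.1 and 39.2 with both. Every sample given SB-3CT was above every sample without it, by a narrow margin over IFN-γ replicate 2. The mean log2 ratio was higher by 0.60 with SB-3CT, 0.68 without and 0.51 with IFN-γ (exact two-sided permutation test over 400 assignments, p = 0.005, the smallest possible, adjusted p = 0.02 over 6 tests). With IFN-γ it was higher by 0.23, 0.31 without and 0.15 with SB-3CT (exact permutation p = 0.01, adjusted p = 0.02), which did not hold without any 1 of the 3 control samples or without SB-3CT + IFN-γ replicate 1 or 3 (adjusted p from 0.05 to 0.09). With the length trend removed, the SB-3CT difference was 0.36 (exact permutation adjusted p = 0.15) and the IFN-γ difference 0.08 (0.637).

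The ratio of EIF4EBP1 to EIF4EBP2 was 30.8, 32.4 and 35.1 in control, 34.5, 46.5 and 41.8 with SB-3CT, 25.4, 32.6 and 31.2 with IFN-γ, and 55.3, 51.6 and 53.5 with both. Cells given both agents stood above all others. The log2 ratio was higher by 0.58 with SB-3CT, 0.31 without and 0.86 with IFN-γ (exact permutation p = 0.01, adjusted p = 0.02), and by 0.10 with the length trend removed (adjusted p = 0.15). The difference with IFN-γ, 0.12, did not pass (exact permutation p = 0.34, adjusted p = 0.456). The ratio of AKT1 to AKT2 was 1.49 ± 0.358 in control, 1.90 ± 0.476 with SB-3CT, 1.61 ± 0.412 with IFN-γ and 1.57 ± 0.0187 with both (SD, n = 3), and it passed for neither agent (exact permutation p = 0.38 and 0.855).

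**Figure D4:**
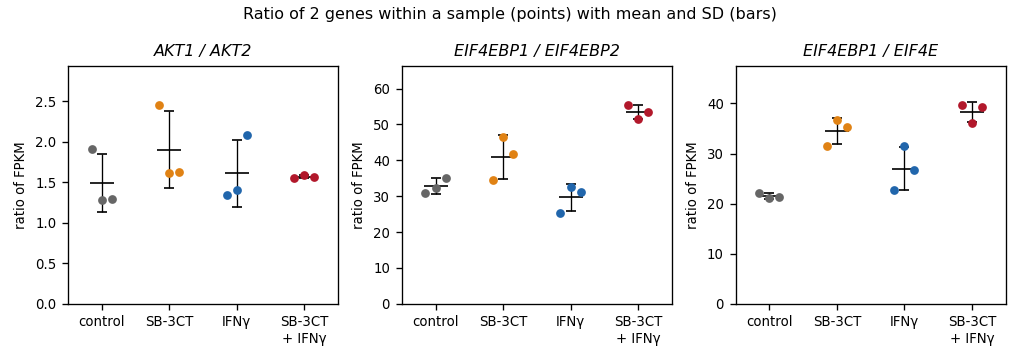
Ratios of FPKM within each of the 12 samples, by group, with the group mean and SD (n = 3): AKT1 to AKT2, EIF4EBP1 to EIF4EBP2 and EIF4EBP1 to EIF4E. The 6 samples given SB-3CT lie between 31.6 and 39.6 for EIF4EBP1 to EIF4E, and the 6 without it between 21.2 and 31.5.

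Other genes of the pathway were followed in 3 lists. Among 17 AKT adaptors, regulators and substrates, 1 rose and 9 fell with SB-3CT in the presence of IFN-γ (median change -0.33). Beside them stood 6.41% and 31.5% of all genes. After median-ratio scaling 3 rose and 5 fell (-0.08), beside 811 and 760 of all 4918 genes. CDKN1A, the p21 cell cycle inhibitor, rose by 0.31 ± 0.06 (limma adjusted p = 0.00598), and by 0.56 after median-ratio scaling. APPL1, an adaptor that binds AKT, fell from 5.33 ± 0.484 to 2.84 ± 0.332 FPKM (change -0.72, and -0.52 after median-ratio scaling), and CDKN1B, the p27 inhibitor, from 18.9 ± 2.0 to 11.7 ± 0.619 (-0.64, and -0.40). SB-3CT alone raised CDKN1A, from 395 ± 6.27 to 515 ± 16.4 FPKM, the median change of the list being -0.06. IFN-γ alone lowered CDKN1A by 0.52 ± 0.05 and CASP9, the initiator caspase that AKT can phosphorylate, by 0.48 ± 0.10, with a list median of -0.11.

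A list named for nutrient and stress inputs to mTORC1 held 13 genes, not all of them upstream of it. Of the 13, 1 rose and 5 fell with SB-3CT in the presence of IFN-γ (median change -0.27), beside the same 6.41% and 31.5% of all genes. After median-ratio scaling 3 rose and 1 fell (-0.03), beside 811 and 760 of all 4918 genes. ATF4, the transcription factor of the amino acid stress response, rose by 0.21 ± 0.06 with IFN-γ present (limma adjusted p = 0.0206) and by 0.35 ± 0.05 without it (0.00932). After median-ratio scaling these changes of ATF4 were 0.46 and 0.39, so which was larger turned with the scale. CLIP1, a microtubule-binding protein that mTOR phosphorylates, rose with IFN-γ from 7.40 ± 0.134 to 12.9 ± 0.976 FPKM, and was at 7.48 ± 0.969 with both agents (change against IFN-γ -0.72, and -0.49 after median-ratio scaling). The autophagy factor AMBRA1 fell by 0.33, and by 0.11 after median-ratio scaling, and C12orf66, a part of the KICSTOR complex, fell by 0.32, and by 0.16. With SB-3CT alone 3 genes rose and none fell in limma (5 and 2 at an unadjusted p under 0.05, median 0.01), beside 5.37% and 6.87% of all genes. The 3 that rose were ATF4, the small GTPase gene ARF1 (0.24) and the CREB coactivator gene CRTC2 (0.19). With IFN-γ alone 2 rose and 2 fell (median 0.02), beside 8.46% and 11.0% of all genes. At the median-ratio scale 3 rose and 2 fell, beside 596 and 500 of all 4918 genes. Those called as deposited were CLIP1 and CRTC2 (0.24), which rose, and the circadian repressor gene BHLHE40 (-0.71) and the proton pump subunit gene ATP6AP1 (-0.29), which fell.

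Among 18 cap-binding and translation factors, none rose and 12 fell with SB-3CT in the presence of IFN-γ (limma, 0 and 14 at an unadjusted p under 0.05, median change -0.35), again beside 6.41% and 31.5% of all genes. After median-ratio scaling 1 rose and 7 fell (-0.14), beside 811 and 760 of all 4918 genes. The RNA helicase DDX3X fell from 73.0 ± 13.3 to 37.6 ± 2.79 FPKM (change -0.93 ± 0.12, adjusted p = 0.00254). The scaffold genes EIF4G3 and EIF4G2 fell by 0.81 and 0.64, and by 0.58 and 0.39 after median-ratio scaling. SB-3CT alone raised the elongation factor EEF2 by 0.27 and lowered the helicase EIF4A2 by 0.31 (list median -0.04), and IFN-γ alone raised EIF4E3, an EIF4E relative, from 0.301 ± 0.0351 to 0.862 ± 0.197 FPKM (median -0.01). For the difference of the SB-3CT changes, 5 of the 17, 3 of the 13 and 10 of the 18 genes were called lower and none higher in limma as deposited (8, 6 and 13 lower and 0 higher at an unadjusted p under 0.05), beside 17.6% of all genes lower and 4.74% higher. Of the 3177 genes of at least 1 FPKM, fitted alone, 988 were called lower and 247 higher. After median-ratio scaling 0 of the 17, 1 of the 13 and 2 of the 18 were called lower, with 257 of all 4918 genes. After quantile normalization 3, 4 and 4 were called lower and 1 of the 17 higher, with 345 of all genes lower and 295 higher.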

How the data were processed

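Per the submitters' processing notes, reads were handled with HISAT2 2.0.5 and StringTie 1.3.3 on hg19, which gave the FPKM of each gene. The authors deposited log2 values, 1 column for each of 12 samples, which were read as log2(FPKM + 1) and turned back into FPKM for levels; 0 columns were left unused. FPKM summed to 121928 to 129692 over the 4918 genes, reads were not counted in the table, and precision rests on 3 samples a group. Symbols were matched to GENCODE and RefSeq, 4458 directly and 429 by an older symbol.

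Groups came from the sample titles. Changes were tested with limma 3.58.1 in R 4.3.3 (trended variance, unpaired, all genes, Benjamini-Hochberg), and ratios by exact permutation within strata. Scripts were tested on simulated data. Same-numbered samples did not deviate together (correlations from -0.07 to 0.17), so the numbers were not taken as pairs. Genes named beside the 9 were CXCL10, CD274, up to 3 per direction, list and comparison by size among those called, and the gene most correlated with each of the 9. A gene that this rule names is not reported here. The 9 genes and the lists were chosen with earlier results of these data known. Alternatives were median-ratio and quantile scaling, a pseudocount of 0.1, a mean of at least 1 FPKM, no variance trend, a replicate block, 1 fit of 4 groups and each sample left out, and, added later, removal of the length trend.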

Additional observations from a re-analysis of the deposited data

Results flagged for a closer look

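These genes stood out because the SB-3CT change differed with and without IFN-γ by the interaction term of limma over 12 samples, adjusted over all genes; values are the log2 change with IFN-γ minus the change without it. Among the 9 genes these were CAB39 (-0.56), EIF4EBP2 (-0.43) and AKT1 (-0.26). From each list at most 3 genes are named, those with the largest difference among the genes called. Of the 5 called among the AKT adaptors and substrates, they were APPL1 (-0.46), APPL2 (-0.46) and DAB2IP (-0.45). Of the 10 called among the translation factors, they were DDX3X (-0.81), EIF4G2 (-0.58) and EIF4G3 (-0.52). The 3 called in the mTORC1 input list were CLIP1 (-0.48), CRTC2 (-0.46) and ARF1 (-0.28). These are values at the deposited scale. After median-ratio scaling CAB39 (-0.38) kept its call, EIF4EBP2 (-0.24, limma adjusted p = 0.0541) and AKT1 (-0.05, 0.792) lost it, and ARF1 was at -0.07. The number called lower went from 5 of 17 to 0 in the AKT list. It went from 3 of 13 to 1 in the mTORC1 input list and from 10 of 18 to 2 in the translation list. Over all 4918 genes it went from 866 to 257. After quantile normalization 3 of 17, 4 of 13 and 4 of 18 were called lower and 1 of 17 higher. Over all genes 345 were then lower and 295 higher. Groups of 3 were too small for a test of single outlying samples.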

How the results depend on the processing

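Of 13 called changes of the 9 genes, 2 kept their call in every alternative: CAB39 in SB-3CT + IFN-γ against IFN-γ, and DEPTOR in IFN-γ against control. Over 36 changes, 453 of 549 alternative values kept direction and side of the threshold, 55 lost the call, 11 gained it and 30 changed sign. The cause of these shifts was not tested. With SB-3CT + IFN-γ against IFN-γ, median-ratio scaling gave 2 members higher (all genes 811 higher, 760 lower; AKT1S1 0.19, EIF4E 0.05), quantile normalization 0 higher (542 and 714; EIF4E 0.022), and length-trend removal 1 lower (428 of all genes; DEPDC5 0.01, EIF4EBP2 0.006). For SB-3CT against control, median-ratio scaling gave 1 member higher, quantile normalization 1 higher and 1 lower, a mean of at least 1 FPKM 535 genes lower, and length-trend removal 0.04 for AKT2 and 0.07 for EIF4EBP2. For IFN-γ against control, EIF4EBP1 was 0.015 by median-ratio, 0.044 by quantile and 0.004 with the length trend removed, which also gave 0 members higher, 832 genes lower and AKT2 -0.019; the fit of 4 groups gave 0 members higher. For the difference, median-ratio scaling gave 1 member higher and 1 lower (384 and 257 of all genes), quantile 1 and 1 (345 lower; EIF4EBP1 -0.074), and length-trend removal 1 and 0 (168 lower; EIF4EBP1 -0.162). Length-trend removal gave ratios of 0.098 and -0.054 (EIF4EBP1 to EIF4EBP2, SB-3CT and IFN-γ) and 0.36 and 0.082 (EIF4EBP1 to EIF4E).

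With the replicate number as a block, SB-3CT against control had 0 members higher and 1 lower (126 and 133 of all genes) and IFN-γ against control 1 lower; the labels do not say what the numbers share, and same-numbered samples did not deviate together. Without 1 sample, all genes called ranged over 196 to 331 higher and 1034 to 1646 lower (SB-3CT + IFN-γ against IFN-γ), 41 to 302 and 30 to 610 (SB-3CT), 271 to 488 and 286 to 531 (IFN-γ), and 161 to 272 and 517 to 1178 (difference). Members called ranged over 1 to 1 and 2 to 3, 0 to 2 and 0 to 2, 0 to 2 and 1 to 2, and 0 to 1 and 2 to 4. In the same order AKT2 ranged from -0.178 to 0.138, -0.25 to 0.189, -0.131 to 0.254 and -0.168 to 0.27. AKT1 ranged from -0.025 to 0.03 with both agents against IFN-γ, AKT1S1 from -0.27 to 0.107 with SB-3CT and -0.172 to 0.205 for the difference, and with IFN-γ CAB39 from -0.032 to 0.123 and EIF4EBP1 from -0.086 to 0.017. Ratios with SB-3CT ranged from 0.066 to 0.265 (AKT1 to AKT2), 0.537 to 0.654 (EIF4EBP1 to EIF4E) and 0.529 to 0.643 (EIF4EBP1 to EIF4EBP2), and with IFN-γ from -0.171 to 0.028, 0.173 to 0.291 and 0.065 to 0.178. Depth in reads is unknown, which limits genes near 1 FPKM such as DEPTOR and DEPDC5 most.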

Other observations

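For each of the 9 genes, the gene of at least 1 FPKM whose deposited values followed it most closely over the 12 samples was sought among 3176 genes. Pearson's r was 0.985 for EIF4EBP1 with ECI1, 0.980 for EIF4EBP2 with DOCK5, 0.977 for CAB39 with AHCYL1, 0.965 for DEPTOR with CHRDL1 and 0.961 for EIF4E with AMACR. It was 0.937 for AKT1 with CENPB, 0.882 for DEPDC5 with ARAF, 0.754 for AKT1S1 with DGKZ and 0.748 for AKT2 with EGLN2. The 12 points share groups and library composition, each gene is the best of many searched, and the values are a description with no test.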
